A study of Mus musculus with 2 samples.

Results

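The genes *Slc30a1* to *Slc30a10* encode the ZnT proteins, a family of membrane transporters, and were compared between E15.5 pancreata of *Mafk*-Tg and WT embryos. Members were taken as the array probe sets whose only gene symbol is one of these 10 names. All 10 were found, with 1 probe set each, among 19938 genes measured in this way. *Mafk*-Tg embryos carried a FLAG-tagged mouse *Mafk* cDNA driven by the rat insulin I promoter, which is active in β-cells, and WT embryos carried no transgene. Both were on the ICR background and taken at E15.5, the time of the secondary transition, when endocrine and acinar cells expand. RNA came from the whole pancreas, so the β-cells that express the transgene supplied only part of it. The labels give 3 embryos per genotype, but 1 array per genotype was analysed, and whether it holds a pool is not stated. There was thus no spread between replicates and no test was run. How precise the values below are is limited by having so few arrays.

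ZnT proteins move zinc out of the cytosol, either across the plasma membrane or into organelles and vesicles. The ZIP proteins, encoded by the *Slc39a* genes, carry zinc in the opposite direction, and metallothioneins bind zinc within the cell. In β-cells the family is known for ZnT8, the product of *Slc30a8*, which loads zinc into the insulin granule, where insulin is stored as zinc-bound crystals. Other members serve the Golgi apparatus, synaptic vesicles, mitochondria or the cell surface.

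The arrays were comparable in scale, with median log2 values of 6.01 in *Mafk*-Tg and 6.01 in WT over 35556 probe sets. The transgene's own gene, *Mafk*, gave 7.00 in *Mafk*-Tg and 6.75 in WT, a difference of 0.25, which is under 1.2-fold. Pancreatic RNA was evident on both, as *Cpa1*, an acinar carboxypeptidase, had 13.51 in *Mafk*-Tg and 13.48 in WT. The arrays also stood apart in genes of the sex chromosomes. *Xist*, which female cells express, had 11.30 in *Mafk*-Tg and 4.40 in WT, and the Y-linked *Eif2s3y*, *Uty* and *Kdm5d* had differences of -5.68, -4.67 and -3.93. Genotype and this sex-linked difference cannot be told apart. None of the 10 *Slc30a* genes lies on the X or Y chromosome in RefSeq GRCm38.p6. An effect of sex on genes of other chromosomes was not tested.

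*Slc30a8* was the only member of the family that differed by at least 1.2-fold. Its log2 value was 6.71 in *Mafk*-Tg and 7.25 in WT, a difference of -0.54, or a *Mafk*-Tg to WT ratio of 0.687. On the linear scale these were signals of 105 in *Mafk*-Tg and 152 in WT. Both values lay above the median of all probe sets, so the lower one was not at the dim end of the scale. Ranked within its own array, *Slc30a8* stood at the 55.5th percentile of all genes in *Mafk*-Tg and at the 65.3rd percentile in WT. In RNA of a whole organ, fewer β-cells and less *Slc30a8* RNA per β-cell cannot be told apart. The part of other endocrine cells in this value was not tested.

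**Figure D1:**
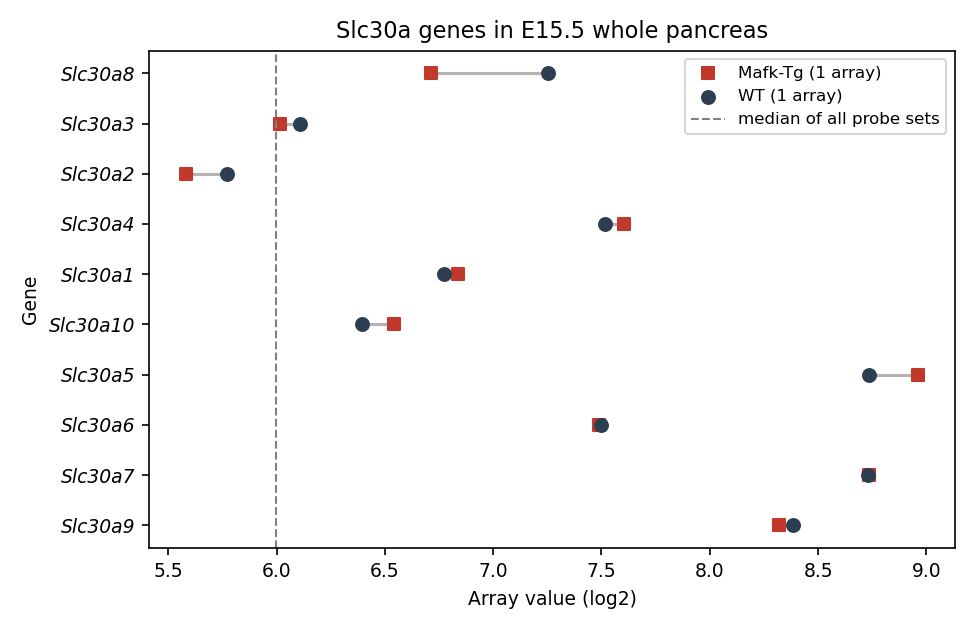
Array values (log2, horizontal axis) of the 10 *Slc30a* genes (vertical axis) in *Mafk*-Tg (squares) and WT (circles), with 1 array per genotype, a line joining each gene's values and a dashed line at the median of all probe sets. *Slc30a8* has the longest line, with 6.71 in *Mafk*-Tg and 7.25 in WT, and *Slc30a2* alone lies below the median in both.

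The 9 paralogs all stayed within 1.2-fold. Their differences ran from -0.19 for *Slc30a2* to 0.23 for *Slc30a5*, with a median of 0.01, and 5 lay above 0 and 4 below. The difference of *Slc30a8* minus this median was -0.55 on the log2 scale, and minus that of the nearest paralog, *Slc30a2*, it was -0.35. Over all 19938 genes the median difference was -0.01. At least 1.2-fold lower were 10.5% of all genes and at least 1.2-fold higher 7.96%. With 1 of 10 members lower and 0 higher, the family as a set held about as many lower genes as the arrays did in general. At 1.5-fold, 0 of 10 members were higher, against 0.697% of all genes, and 0 were lower, against 1.27%. What set *Slc30a8* apart from the other members was the size of its difference. Among the 3659 genes whose mean level lay within 0.5 log2 of that of *Slc30a8*, 7.16% were at least 1.2-fold lower, and 33 genes, or 0.902%, had a difference of -0.54 or lower. These shares describe a pair of arrays and are not a test. *Slc30a8* was also named in the study's own array list, so its lower value here is not independent evidence. Separately, the study measured *Slc30a8* by quantitative RT-PCR at E15.5 and reported a decrease in *Mafk*-Tg, larger than the one on these arrays.

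**Figure D2:**
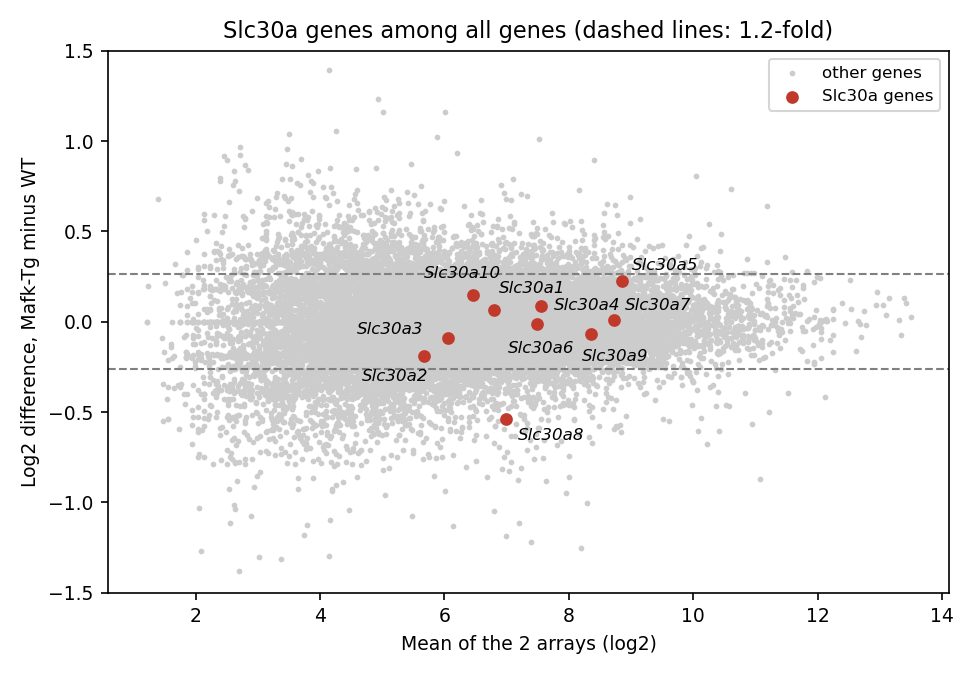
Log2 difference, *Mafk*-Tg minus WT (vertical axis), against the mean of the 2 arrays (log2, horizontal axis) for all genes (grey) and the 10 *Slc30a* genes (red), with dashed lines at 1.2-fold; 9 genes with differences beyond 1.5 in size are not drawn. *Slc30a8* lies at -0.54 and the other 9 members between the dashed lines.

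The other vesicular members were within 1.2-fold. *Slc30a3*, whose product fills synaptic vesicles of neurons with zinc, had a log2 value of 6.02 in *Mafk*-Tg and 6.11 in WT, a difference of -0.09. These values lay close to the median of all probe sets, where part of the signal is background. Among all genes they stood at the 43.3rd percentile in *Mafk*-Tg and the 44.6th in WT. *Slc30a2*, which encodes a vesicular transporter of secretory epithelia such as the mammary gland, had 5.58 in *Mafk*-Tg and 5.77 in WT. Its difference of -0.19 was the lowest among the paralogs, but it was the single member below the median of all probe sets in both arrays. Of the 3516 genes of similar level, 19.6% had a difference as low or lower. *Slc30a4*, which encodes another vesicular transporter and is mutated in the lethal milk mouse, had 7.60 in *Mafk*-Tg and 7.52 in WT, a difference of 0.09. Of genes of similar level, 35.2% lay as low as *Slc30a3* or lower and 27.4% as high as *Slc30a4* or higher.

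The members of the early secretory pathway lay above the median level on both arrays. ZnT5 and ZnT6, the products of *Slc30a5* and *Slc30a6*, act as a heterodimer in which ZnT6 does not itself carry zinc, and ZnT7, the product of *Slc30a7*, works in the Golgi apparatus. They supply zinc to enzymes made in this pathway, such as alkaline phosphatases. *Slc30a5* had a log2 value of 8.96 in *Mafk*-Tg and 8.73 in WT, a difference of 0.23, or 1.17-fold. This was the highest difference in the family and lay just inside the cutoff. Of 1943 genes of similar level, 4.94% were at least 1.2-fold higher and 7.15% had a difference as high as that of *Slc30a5* or higher. Its dimer partner *Slc30a6* had 7.49 in *Mafk*-Tg and 7.50 in WT, a difference of -0.01. *Slc30a7* had 8.74 in *Mafk*-Tg and 8.73 in WT, a difference of 0.01. *Slc30a6* and *Slc30a7* thus had nearly the same value on both arrays, while the partner of *Slc30a6* was slightly higher in *Mafk*-Tg.

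Among the enzymes that receive zinc on this route, and other zinc enzymes made there, 2 of 11 measured genes passed 1.2-fold upward in *Mafk*-Tg and 0 downward, with a median difference of 0.07, against 7.96% of all genes higher and 10.5% lower. A count of 2 of 11 is too small to set these enzymes apart from that background. Both genes encode carboxypeptidases. *Cpm*, of a membrane-bound one, had 7.34 in *Mafk*-Tg and 6.66 in WT, a difference of 0.68, and *Cpb1*, of a pancreatic digestive one, had 10.52 in *Mafk*-Tg and 9.98 in WT, a difference of 0.54. *Cpb1* is also one of the acinar markers, of which 7 of 17 passed 1.2-fold upward (median difference 0.25), and the part of acinar cells in its value was not tested. The tissue-nonspecific alkaline phosphatase gene *Alpl* had 6.18 in *Mafk*-Tg and 6.33 in WT, a difference of -0.15.

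The members of the cell surface and the mitochondrion were also within the cutoff. *Slc30a1* encodes ZnT1, which exports zinc across the plasma membrane, and had 6.84 in *Mafk*-Tg and 6.77 in WT, a difference of 0.06. *Slc30a10*, whose product exports mainly manganese, had 6.54 in *Mafk*-Tg and 6.39 in WT, a difference of 0.15. *Slc30a9*, which encodes a mitochondrial zinc transporter, had 8.32 in *Mafk*-Tg and 8.38 in WT, a difference of -0.07. *Slc30a1* and *Slc30a10* were a little higher and *Slc30a9* a little lower in *Mafk*-Tg, each by less than 1.2-fold.

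Across the family, the values ran from 5.58 for *Slc30a2* to 8.96 for *Slc30a5* in *Mafk*-Tg, and in WT from 5.77 to 8.73 for the same genes. Probes differ in how strongly they bind, so a difference in level between genes is one of array signals and not of RNA amounts. Only the values of the same gene on both arrays give a comparison of genotypes.

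*Slc30a1* is a known target of the zinc-sensing transcription factor MTF1, together with the metallothionein genes *Mt1* and *Mt2*. MTF1 binds the metal response element, whose core was searched as TGCGCNC and TGCACNC on both strands of the RefSeq promoter windows of GRCm38.p6, from 250 bases before to 50 after each start site. The windows of the 3 genes are shown because their RNA is known to follow cellular zinc, in 5′ to 3′ order with the matches in capitals:
Slc30a1, chr1:191906531-191906830, + strand: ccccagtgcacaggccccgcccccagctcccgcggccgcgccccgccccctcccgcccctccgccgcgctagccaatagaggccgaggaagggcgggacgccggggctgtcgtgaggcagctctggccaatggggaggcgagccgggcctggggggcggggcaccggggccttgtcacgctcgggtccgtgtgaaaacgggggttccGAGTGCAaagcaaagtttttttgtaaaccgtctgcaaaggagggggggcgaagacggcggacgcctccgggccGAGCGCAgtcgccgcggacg
Mt1, chr8:94178839-94179138, + strand: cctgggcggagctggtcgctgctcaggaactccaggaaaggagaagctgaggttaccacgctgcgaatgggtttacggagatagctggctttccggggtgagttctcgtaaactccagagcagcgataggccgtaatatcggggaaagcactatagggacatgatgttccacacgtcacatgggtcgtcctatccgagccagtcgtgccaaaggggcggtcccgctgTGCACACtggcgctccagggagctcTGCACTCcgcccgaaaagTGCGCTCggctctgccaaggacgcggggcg
Mt2, chr8:94172368-94172667, + strand: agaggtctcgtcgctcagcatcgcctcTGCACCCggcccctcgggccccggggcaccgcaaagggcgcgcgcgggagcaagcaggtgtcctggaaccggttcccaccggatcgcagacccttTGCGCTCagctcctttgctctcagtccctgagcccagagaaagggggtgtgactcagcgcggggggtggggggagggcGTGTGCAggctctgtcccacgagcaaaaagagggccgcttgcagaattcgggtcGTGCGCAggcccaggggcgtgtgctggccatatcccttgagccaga

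The window of *Slc30a1* held 2 matches, that of *Mt1* 3 and that of *Mt2* 4, with no overlap between them. Of all 32851 windows, 25.7% held at least 1 match. Of the 9 *Slc30a* genes with a window, 6 had a match, namely 3 each in *Slc30a4* and *Slc30a10*, 2 each in *Slc30a1* and *Slc30a2* and 1 each in *Slc30a3* and *Slc30a5*, where 2 of the matches of *Slc30a10* overlap on opposite strands. *Slc30a3* has 2 windows, and 1 of them held no match. The count of 6 is thus one of genes, while 25.7% is a share of windows. No window was used for *Slc30a8*. The letters TGCTGA, an arm of the palindromic element that MAF proteins recognise, occurred on either strand in 19.5% of all windows. They occurred in the windows of 0 of these 9 genes. A match is a run of letters and not a measured binding site.

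The genes of zinc buffering and sensing gave no difference past the cutoff, with 0 of 6 higher, 0 lower and a median difference of 0.01. Beside 7.96% higher and 10.5% lower over all genes, a count of 0 among so few genes is near the background. *Mt1* had a log2 value of 11.39 in *Mafk*-Tg and 11.19 in WT, a difference of 0.20. *Mt2* had 12.63 in *Mafk*-Tg and 12.40 in WT, a difference of 0.23. Both lay slightly above 0 and within 1.2-fold, as did *Slc30a1* at 0.06. *Mtf1*, the gene of the sensor itself, had 6.89 in *Mafk*-Tg and 6.91 in WT, a difference of -0.02. *Mt3* and *Mt4*, metallothionein genes of brain and stratified epithelium, had differences of -0.15 and -0.07, and *Tmem163*, which encodes a vesicular zinc transporter outside the family, 0.04.

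Of the 14 *Slc39a* importer genes, 2 passed 1.2-fold upward in *Mafk*-Tg and 1 downward, with a median difference of 0.03. *Slc39a5*, whose product ZIP5 lies at the basolateral membrane of intestinal and acinar cells, had 8.04 in *Mafk*-Tg and 7.57 in WT, a difference of 0.47. *Slc39a11* had 7.91 in *Mafk*-Tg and 7.63 in WT, a difference of 0.28, close to the cutoff of 0.26. *Slc39a13*, of the ZIP13 protein needed in connective tissue, had 8.07 in *Mafk*-Tg and 8.38 in WT, a difference of -0.31. The other 11 lay between -0.23 for *Slc39a8* and 0.18 for *Slc39a12*. Against a background of 7.96% higher and 10.5% lower genes, these counts do not set the importers apart. *Slc30a8* thus had the largest difference in size among the 30 genes of zinc transport and buffering measured here, followed by *Slc39a5*.

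**Figure D3:**
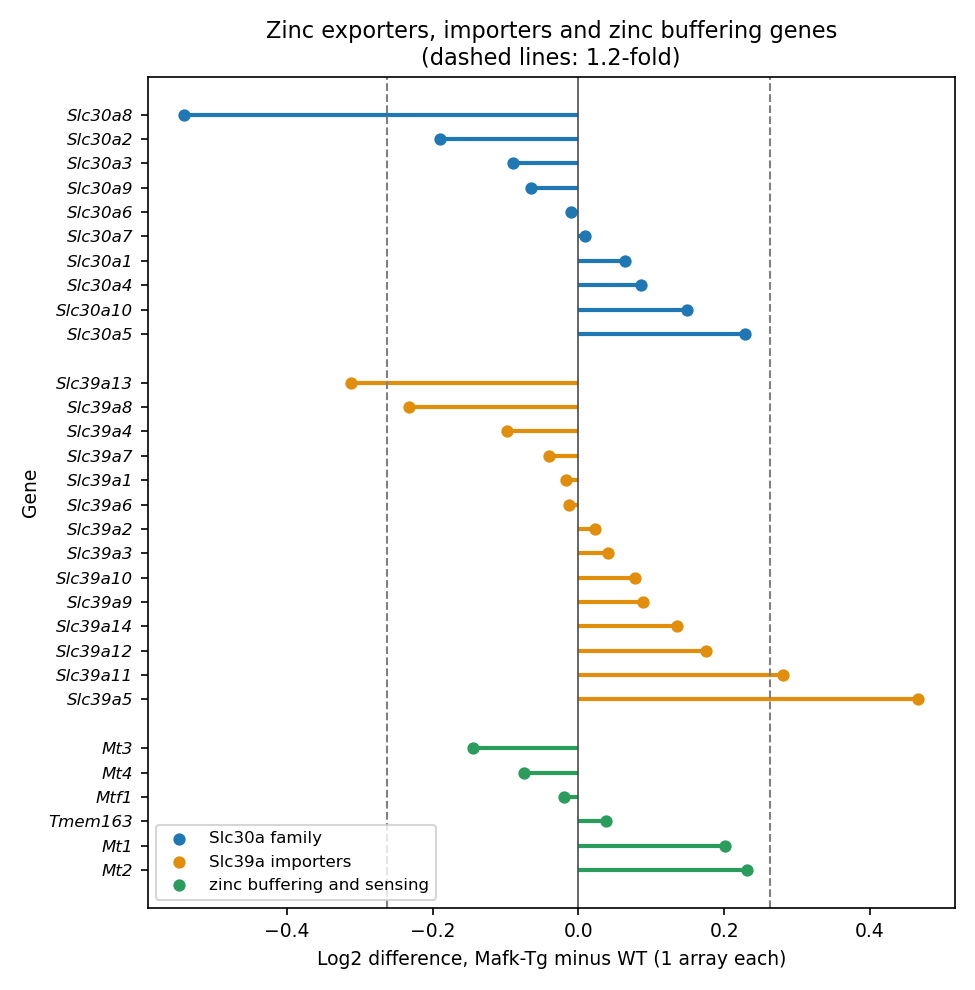
Log2 difference, *Mafk*-Tg minus WT (horizontal axis), of the 10 *Slc30a* genes (blue), the 14 *Slc39a* genes (orange) and 6 genes of zinc buffering and sensing (green), from 1 array of each genotype. Dashed lines mark 1.2-fold, and *Slc30a8* at -0.54 and *Slc39a5* at 0.47 lie farthest from 0.

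Beside *Slc30a8*, 5 of 11 measured β-cell genes were at least 1.2-fold lower in *Mafk*-Tg and 1 was higher, with a median difference of -0.18, against 10.5% lower and 7.96% higher over all genes. *Ins2*, whose product binds zinc in the same granule, had 8.40 in *Mafk*-Tg and 8.79 in WT, a difference of -0.40. *Sytl4*, an X-linked gene of the granule protein granuphilin, had 6.48 in *Mafk*-Tg and 7.01 in WT, a difference of -0.53. The other lower genes were *G6pc2*, of an islet glucose-6-phosphatase, at -1.13, *Mafa*, of a β-cell transcription factor, at -0.47, and *Slc2a2*, of the glucose transporter GLUT2, at -0.46. In *Mafk*-Tg, *G6pc2* at 5.58 and *Mafa* at 5.62 lay below the median of the arrays, where part of the signal is background. *Ero1b*, of an oxidase of the endoplasmic reticulum, was the higher one at 0.29. The remaining 5 were within the cutoff, with *Iapp* at 0.17, *Nkx6-1* at 0.11, *Abcc8* and *Pcsk1* both at -0.02 and *Kcnj11* at -0.18. The β-cell genes thus did not move as one, and *Slc30a8* at -0.54 lay among the lower of them. By quantitative RT-PCR at E15.5 the study reported *Ins2*, *G6pc2* and *Sytl4* as decreased in *Mafk*-Tg. It reported *Slc2a2* and *Pcsk1* as unchanged and *Abcc8* and *Kcnj11* as increased. For *Slc2a2*, *Abcc8* and *Kcnj11* this differs from these arrays. The study also listed *Nkx6-1* among the increased factors, though not at its own significance limit. Among 10 measured granule genes that endocrine cells share, 3 passed the cutoff upward and *Chga* alone downward, and the median was 0.10. The lower count was thus near the background of 10.5% and the higher one was above 7.96%. Of the higher genes, *Resp18* at 5.37 in *Mafk*-Tg and 4.68 in WT lay below the median of the arrays, where part of the signal is background. Of 8 genes of α-cells and other islet hormones 5 were higher, against 7.96% of all genes, and 0 lower, with a median of 0.38.

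Markers of other cells differed between the arrays as well, and their counts stand beside 10.5% of all genes at least 1.2-fold lower and 7.96% at least 1.2-fold higher. Leukocyte genes were lower in *Mafk*-Tg in 10 of 12 cases, with a median of -0.56 and a summed linear signal of 4389 in *Mafk*-Tg and 7268 in WT. Hepatocyte genes were lower in 7 of 9 and higher in 1, with a median of -0.54 and summed signals of 4286 in *Mafk*-Tg and 5286 in WT. Erythroid genes were lower in 7 of 11 and higher in 2, with a median of -0.44 and summed signals of 2159 in *Mafk*-Tg and 2869 in WT. Acinar genes were higher in 7 of 17 and lower in 0, with a median of 0.25 and summed signals of 51353 in *Mafk*-Tg and 46388 in WT. The β-cell genes summed to 3016 in *Mafk*-Tg and 3078 in WT, of which *Iapp* alone gave 1307 and 1161. Of these β-cell genes, 8 had differences below 0 and 3 above. Such sums are ruled by the brightest probe sets and are not amounts of cells. All leukocyte and hepatocyte markers lay above the median level on at least 1 array. The part of these cells in the values of *Slc30a8*, *Slc30a5* and *Slc39a5* was not tested. Mesenchyme genes had a median of -0.15 with 2 of 10 lower, endothelial genes -0.09 with 0 of 5 past the cutoff, duct genes 0.12 with 1 of 4 lower and nerve genes 0.24 with 2 of 5 higher. The leukocyte, hepatocyte and erythroid counts of lower genes and the acinar count of higher genes were several times the background shares, while the mesenchyme, endothelial, duct and nerve lists were too short or too near these shares to be set apart. All these lists were chosen with earlier results of these data known, so their counts are not independent evidence. The 9 measured reference genes had a median of 0.02, with 0 past the cutoff.

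**Figure D4:**
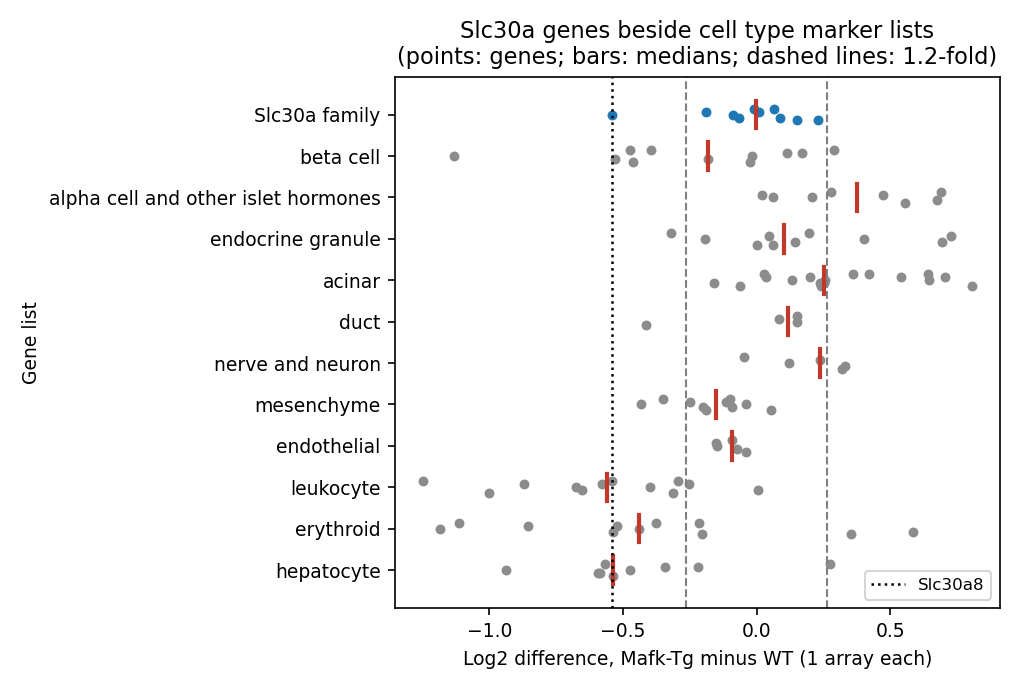
Log2 difference, *Mafk*-Tg minus WT (horizontal axis), of each measured gene (points) and the median (red bars) of the *Slc30a* family and 11 cell type marker lists, with 1 array per genotype, dashed lines at 1.2-fold and a dotted line at *Slc30a8*. *Slc30a8* at -0.54 lies near the medians of the leukocyte and hepatocyte lists, at -0.56 and -0.54, and near the β-cell gene *Sytl4* at -0.53. The median of the β-cell list is -0.18, with 5 of 11 genes at least 1.2-fold lower and 1 higher, while the family's median is 0.00.

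The 5 genes nearest to *Slc30a8* in array signal on both arrays, which is not a likeness of RNA amounts, were *Fermt3*, *Vsir*, *Pla2g7*, *Psmg4* and *Ptpn7*, at distances of 0.05 to 0.12 log2 over the 2 arrays. *Fermt3*, which encodes kindlin-3 of blood cells, had 6.67 in *Mafk*-Tg and 7.26 in WT, a difference of -0.59. *Vsir*, of an immune checkpoint protein, had -0.48, *Pla2g7*, of a phospholipase secreted by macrophages, had -0.45, *Psmg4*, of a proteasome assembly factor, had -0.39, and *Ptpn7*, of a phosphatase of haematopoietic cells, had -0.37. None of them is a β-cell marker in the lists used here. Many genes of blood cells were lower in *Mafk*-Tg, and likeness over 2 arrays sets apart only level and difference. The part of blood cells in the value of *Slc30a8* was not tested.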

How the data were processed

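Total RNA of whole E15.5 pancreata was hybridised to GeneChip MoGene-1_0-st-v1 arrays. The deposited values are log2 probe set values that the authors obtained with Affymetrix Expression Console (its algorithm is not given in the sources used) and were not rescaled. They run from 0.51 to 13.93 in *Mafk*-Tg and from 0.72 to 14.01 in WT. Of 35556 probe sets, the platform's gene table names 21789 with 1 symbol, which were averaged per gene, and 1621 with several, while 12146 have no name here. Genes outside the first set were not analysed here. The cutoff was 1.2-fold (0.26 on the log2 scale) in *Mafk*-Tg minus WT. Alternatives were 1.5-fold, medians set equal, quantile normalization, removal of a loess trend over level (span 0.3), the brightest probe set, and a filter at the median level. All members are named; of other lists, those past the cutoff or needed to account for the list, and of the marker lists only some. *Alpl* and *Cpa1* were named after their values had been seen. Members and lists were chosen with earlier results of these data known. The steps were tested on simulated data, in which differences spread less than on these arrays. That test therefore does not show how reliable a 1.2-fold call is here. The software was Python 3.11.15, statsmodels 0.14.6, pandas 2.3.3, numpy 2.4.6 and matplotlib 3.10.9.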

Additional observations from a re-analysis of the deposited data

How the results depend on the processing

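No paired analysis was possible because each genotype has 1 array. Under equal medians, quantile normalization, the loess and the brightest probe set, the difference of *Slc30a8* ran from -0.55 to -0.54, and that of *Slc30a5* from 0.22 to 0.23, within 1.2-fold in each. The difference of *Slc30a8* minus the median of its paralogs ran from -0.58 to -0.55 under these and with only genes at or above the median level, which leaves out *Slc30a2*. Each member has 1 probe set, so the choice of the brightest could not change any of these values. Setting medians equal shifts all genes alike, so it could not change the difference between *Slc30a8* and its paralogs. At a cutoff of 1.5-fold, 0 *Slc30a* members were lower, as *Slc30a8* has a fold of 1.45, and 0 *Slc39a* genes were higher and 0 lower. The other counts and medians were within 1.5 times their values above or shifted by less than a robust SD of the differences among genes of like level. The scalings shifted the median of all genes by at most 0.01, far less than that robust SD, so this limit was a weak check of the medians. Signal over background limits *Slc30a2* and *Slc30a3*, which lie below or near the median of the arrays.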
